A study of Mus musculus with 12 samples.

Results

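The receptors through which the adrenal medulla receives its nerve supply were followed as 10 genes: the nicotinic acetylcholine receptor subunits Chrna3, Chrna4, Chrna5, Chrna7, Chrnb2 and Chrnb4, the muscarinic acetylcholine receptor Chrm1, the PACAP receptor Adcyap1r1 (PAC1), and Vipr1 and Vipr2 (VPAC1 and VPAC2), which bind PACAP and VIP. They were chosen by gene symbol, each by its probe set of highest mean over the 12 arrays, and make up 10 of the 19505 genes measured. All 10 were measured, each by 1 probe set.

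The adrenal medulla was dissected from 12 male C57Bl6 mice, and total RNA of each animal was hybridised to 1 Affymetrix array. Normally colonized mice were set against germ-free mice, which are raised without a gut flora, and both were given human insulin (Humulin, 2 IU/kg, intraperitoneal) or saline. All animals had fasted for 3 h, and all were killed 90 min after the injection. The 4 groups of 3 animals are called colonized saline (animals 1 to 3), colonized insulin (4 to 6), germ-free saline (7 to 9) and germ-free insulin (10 to 12). The mice carried no engineered allele in the labels, and their age was not given. The design asked how the response to insulin-induced low blood glucose depends on the microbiota. Blood glucose was not analysed here. Nothing in the labels says whether the animals of a group shared a cage or isolator, so p-values measure the spread between these animals.

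Chromaffin cells of the adrenal medulla are driven by splanchnic nerve endings that release acetylcholine and the peptide PACAP. Acetylcholine opens nicotinic receptors, which are rings of subunits that pass sodium and calcium, and in these cells the receptor built from alpha3 and beta4 carries most of the fast signal. PACAP acts on PAC1, which couples to Gs and cyclic AMP as well as to Gq and phospholipase C, and sustains catecholamine release during strong stress such as low blood glucose.

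After insulin, 4 of the 10 receptor genes were lower in germ-free than in colonized medulla past the test, against 5.15% of all probe sets. The share was larger among bright probe sets: in a fit without the dim ones, 1029 of 7068 were called lower. The 4 genes were Adcyap1r1 (a log2 difference of -1.59 ± 0.26, SE, 3 arrays in each group), the nicotinic subunits Chrnb4 (-1.29 ± 0.34) and Chrnb2 (-1.23 ± 0.16), and Chrna7 (-1.26 ± 0.27). The count fell to 2 without colonized insulin animal 4, or without germ-free insulin animal 11 or 12. After saline, none of the 10 differed between germ-free and colonized mice past the test, where 6.90% of all probe sets did. Insulin changed none of the 10 past the test within colonized or within germ-free mice (0.153% and 0.439% of all probe sets). Chromaffin marker genes were lower in the same germ-free insulin arrays.

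Values throughout are log2 expression values, so a difference of 1 is a change by a factor of 2 on the linear scale, and a gene was called at an adjusted p under 0.05 in limma (Benjamini-Hochberg adjustment over 19572 probe sets). Between animals of a group the arrays had correlations of 0.954 to 0.993, and none under 0.987 once colonized saline animal 2 was set aside. The mean of 5222 negative control rows was 4.92 to 5.04 on the colonized arrays and 5.46 to 5.67 on the germ-free arrays. Background level and colonization therefore cannot be told apart in these data, and levels near it are given with that limit. The chromaffin markers Th, Dbh and Pnmt, the catecholamine enzymes, and 9 further chromaffin genes averaged 10.08 to 11.58 per array, so the labelled tissue carried its defining markers on every array. Adrenal cortex markers averaged 12.03 to 12.52, so every array also carried cortical transcripts. Colonized saline animal 2 stood apart, with autonomic neuron markers at 9.59 against 6.72 to 7.78 on the other arrays. It also had the highest hepatocyte markers (11.11 against 6.21 to 10.38) and smooth muscle markers (9.20 against 6.83 to 8.13). Without it, 1 of the 10 receptor genes was called between germ-free and colonized mice after saline and 6 were called after insulin. Calls over all probe sets rose as well, from 1351 to 1938 after saline and from 1521 to 2854 after insulin.

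Chrna3 and the called genes had their lowest group mean in germ-free insulin mice. Chrna5, Chrm1 and Vipr1 did as well, and their promoters are not shown. The promoters of Chrna3 and the called genes are shown here. Each is the stretch of 250 bases that ends just before the gene's start in RefSeq (mouse build GRCm38.p6), written 5′ to 3′ along the gene's own strand. Capitals mark the GC box GGGCGG, the letters bound by Sp1-type factors, on either strand, and the E-box CANNTG, the letters bound by basic helix-loop-helix factors. Overlapping matches run together.
Chrna3, chr9:55026563-55026812, minus strand: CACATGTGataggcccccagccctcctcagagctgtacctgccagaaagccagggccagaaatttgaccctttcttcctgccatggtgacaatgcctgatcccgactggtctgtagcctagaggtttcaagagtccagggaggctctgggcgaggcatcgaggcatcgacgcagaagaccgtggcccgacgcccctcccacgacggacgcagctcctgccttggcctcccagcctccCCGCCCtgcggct
Chrnb4, chr9:55048545-55048794, minus strand: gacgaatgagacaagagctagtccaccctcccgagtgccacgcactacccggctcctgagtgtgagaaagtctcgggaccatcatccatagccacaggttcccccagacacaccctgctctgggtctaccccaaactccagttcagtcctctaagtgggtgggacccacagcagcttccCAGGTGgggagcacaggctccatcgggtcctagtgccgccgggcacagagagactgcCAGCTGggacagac
Chrna7, chr7:63212527-63212776, minus strand: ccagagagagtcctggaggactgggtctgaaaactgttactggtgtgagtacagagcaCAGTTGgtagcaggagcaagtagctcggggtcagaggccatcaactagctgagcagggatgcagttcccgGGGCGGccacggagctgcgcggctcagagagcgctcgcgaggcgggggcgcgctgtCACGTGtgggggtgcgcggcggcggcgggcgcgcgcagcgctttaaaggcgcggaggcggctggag
Chrnb2, chr3:89764633-89764882, minus strand: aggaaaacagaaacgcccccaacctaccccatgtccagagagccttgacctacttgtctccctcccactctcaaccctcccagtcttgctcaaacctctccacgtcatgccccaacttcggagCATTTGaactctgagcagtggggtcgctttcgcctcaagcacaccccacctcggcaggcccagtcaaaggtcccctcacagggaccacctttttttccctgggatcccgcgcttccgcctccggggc
Adcyap1r1, chr6:55451728-55451977, plus strand: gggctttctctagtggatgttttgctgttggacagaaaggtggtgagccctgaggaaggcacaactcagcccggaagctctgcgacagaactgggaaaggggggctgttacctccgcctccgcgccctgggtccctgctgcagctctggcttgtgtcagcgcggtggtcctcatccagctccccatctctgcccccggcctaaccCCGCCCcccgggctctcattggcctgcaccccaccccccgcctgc

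The windows of Chrnb4 and Adcyap1r1 lie inside the gene's full span, so another start lies upstream of each. RefSeq windows were matched for 9 of the 10 genes, all but Chrm1 (10 windows, as Chrna5 has 2 starts). The GC box stood in 7 of the 10 windows and in 32.7% of all 32851 windows of this length. The E-box stood in 6 of 10 and in 66.2% of all. Apart from the first Chrna5 window (40%), the windows were 59.6% to 74.4% G and C, against a median of 52.4% over all windows. The GC box shares were not matched for this base content. Chrna3, Chrna7 and Adcyap1r1 each held 1 GC box, while the windows of Chrnb4 and Chrnb2 held none. No window held the full cyclic AMP response element TGACGTCA (1.55% of all windows), the EGR site GCGTGGGCG (0.536%) or TATAAA (12.4%). The shorter TGACG stood in 3 of 10 windows, Chrnb2, Chrna5 and Vipr1, and in 17.8% of all. These are matches of letters, searched on both strands, and show no binding.

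Chrna3 encodes alpha3, the ligand-binding subunit of the ganglionic receptor, and lies in a cluster with Chrna5 and Chrnb4. Its log2 values were 10.80, 11.18 and 10.24 in the colonized animals given saline and 11.03, 10.66 and 10.20 in those given insulin. The germ-free animals measured 10.42, 10.30 and 10.54 after saline and 10.18, 9.73 and 9.52 after insulin. All 3 germ-free insulin animals lay below every other animal, while the other 3 groups overlapped. Germ-free minus colonized was -0.82 ± 0.25 after insulin and missed the threshold (limma adjusted p = 0.0699). It passed without colonized saline animal 2 (0.0288), colonized saline animal 3 (0.0441) or colonized insulin animal 6 (0.0362).

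Chrnb4 encodes beta4, the partner of alpha3. It measured 9.62, 10.04 and 8.87 in the colonized animals given saline and 10.16, 9.87 and 9.01 in those given insulin. In germ-free animals the values were 9.11, 8.97 and 9.46 after saline and 8.91, 8.23 and 8.02 after insulin. The germ-free insulin animals were again the lowest as a group, with animal 10 above the lowest colonized saline animal, and they lay below both the germ-free saline and the colonized insulin animals without overlap. After insulin the gene was lower in germ-free mice by a factor of 2.45 (log2 difference -1.29 ± 0.34, limma adjusted p = 0.0386). Germ-free insulin animals 11 and 12 lay under the 95th percentile of their array's negative controls (8.34 and 8.41). The size of this difference was therefore measured partly close to the background. The call held in 5 of the 12 fits that left out 1 array, with differences of -1.63 to -1.05. It was lost without colonized insulin animal 4 or 5, germ-free insulin animal 11 or 12, or any 1 of the germ-free saline animals, which enter the estimate of the spread alone.

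Chrna5 encodes alpha5, an accessory subunit that joins alpha3 and beta4 and alters calcium flow and desensitisation. The gene read 4.76, 6.11 and 4.32 in colonized saline mice, and 3.46 to 4.20 in the other 9 animals. Every value was below the 95th percentile of its array's negative controls, so no level is read from it. The colonized saline animals lay above all others. Insulin minus saline in colonized mice was -1.29 ± 0.35 (limma adjusted p = 0.21), and germ-free minus colonized after saline was -1.19 ± 0.35 (0.0604), neither of them called. Without animal 2, where the value was highest, these differences were -0.77 and -0.67. Chrna5 and Chrna3 lie on opposite strands and their spans overlap at the 3′ ends in the RefSeq gene table.

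Chrna7 encodes alpha7, which forms receptors of a single subunit with high calcium permeability. It measured 9.94, 8.54 and 9.39 in the colonized animals given saline and 10.12, 9.72 and 9.71 in those given insulin. Germ-free animals gave 9.00, 9.21 and 9.15 after saline and 8.77, 8.60 and 8.41 after insulin. Colonized insulin animals were above and germ-free insulin animals below all germ-free saline animals, and only colonized saline animal 2 reached into the range of the germ-free insulin group. After insulin the gene was lower in germ-free mice by a factor of 2.39 (log2 difference -1.26 ± 0.27, limma adjusted p = 0.0164), and the call held in 9 of the 12 fits without 1 array. In germ-free insulin animal 12 the value (8.414) was barely above the 95th percentile of that array's negative controls (8.409).

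Chrnb2 encodes beta2, the partner of alpha4 in the brain's commonest nicotinic receptor, which also pairs with alpha3. Its values were 7.52, 7.02 and 7.37 in the colonized animals given saline and 7.82, 7.58 and 7.25 in those given insulin. The germ-free values were 6.62, 6.95 and 6.92 after saline and 6.31, 6.34 and 6.30 after insulin. Every germ-free animal lay below every colonized animal, and every germ-free insulin animal below every germ-free saline animal. Germ-free minus colonized after insulin was -1.23 ± 0.16 (limma adjusted p = 0.00297), and it was called in all 12 fits without 1 array. The values exceeded the 95th percentile of their array's negative controls in 3 of 6 colonized and in 0 of 6 germ-free animals, so the size of this difference was measured close to the background.

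Chrna4, the partner of beta2, varied little between group means. It ran from 7.23 to 8.11 over all 12 animals, and the 4 group means lay between 7.60 and 7.69. The differences were -0.06 ± 0.21 after saline and 0.05 ± 0.21 after insulin for germ-free minus colonized, with 95% intervals of -0.51 to 0.39 and -0.40 to 0.49. Its levels exceeded the negative control limit on 5 of the 12 arrays, all colonized.

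Chrm1 encodes the M1 muscarinic receptor, which couples to Gq and adds a slow component to acetylcholine's action. The log2 values were 6.81, 7.66 and 6.62 in the colonized animals given saline and 6.79, 6.35 and 6.00 in those given insulin. The germ-free animals measured 6.13, 6.16 and 6.23 after saline and 5.58, 5.98 and 5.78 after insulin. The group means ran down from colonized saline to germ-free insulin, with colonized insulin and germ-free saline overlapping, and the lowest colonized saline animal lay above all germ-free animals. Germ-free minus colonized was -0.86 ± 0.25 after saline (limma adjusted p = 0.0613) and -0.60 ± 0.25 after insulin (0.18), neither of them called. Without colonized saline animal 2, the saline difference was -0.54, and the insulin difference, to which that animal gives no value, was called (adjusted p = 0.0377). Array weights in limma gave a call after insulin as well (0.0292), in a fit that called 3727 of all probe sets. Only that animal exceeded its array's negative control limit.

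Adcyap1r1 encodes PAC1, the PACAP receptor of chromaffin cells, and showed the largest difference among the 10 genes. It measured 10.82, 9.82 and 10.63 in the colonized animals given saline and 11.36, 10.97 and 10.73 in those given insulin. In germ-free animals the values were 10.27, 10.19 and 10.37 after saline and 9.86, 9.39 and 9.06 after insulin. The highest group mean was in colonized insulin and the lowest in germ-free insulin mice, with colonized saline animal 2 as the only colonized animal below germ-free saline. After insulin, germ-free mice were lower by a factor of 3.01 (log2 difference -1.59 ± 0.26, limma adjusted p = 0.00559). The call held in all 12 fits without 1 array, with differences of -1.80 to -1.40.

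Vipr1 and Vipr2, which bind VIP and PACAP alike, lay low. Vipr1 ran from 5.10 to 5.79 and Vipr2 from 5.58 to 6.25, under the negative control limit on all 12 arrays. For both genes the differences between groups were 0.47 or less in size, none of them called, and no level is read from them. Vipr1 was 5.19, 5.17 and 5.14 in germ-free insulin against 5.58, 5.35 and 5.79 in germ-free saline mice, so these groups did not overlap.

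**Figure D1:**
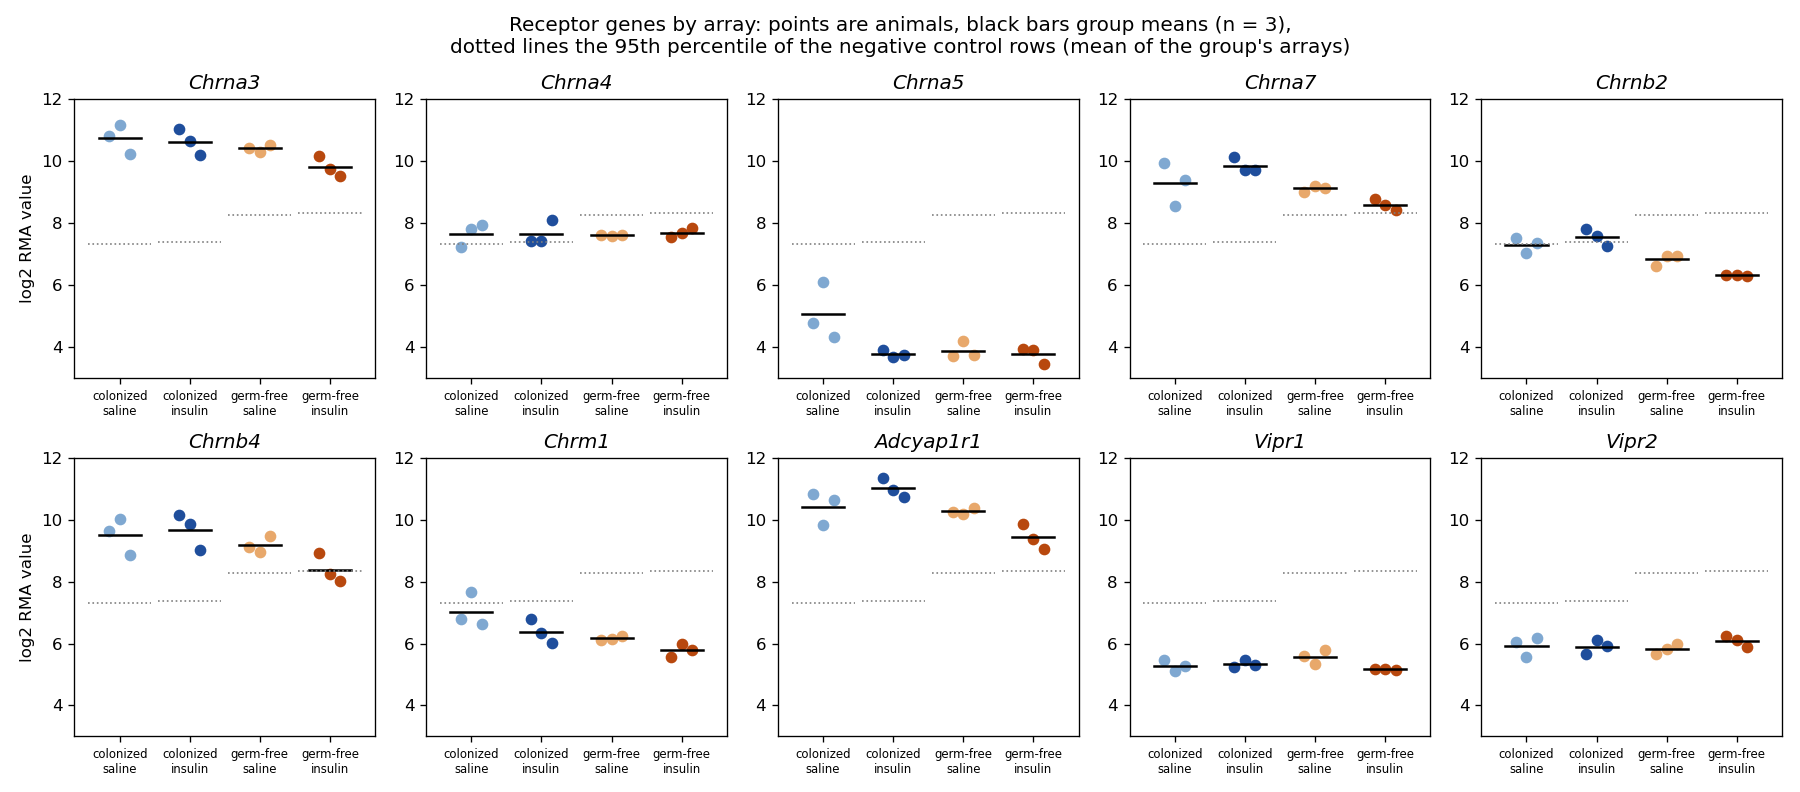
Log2 values of the 10 receptor genes (y axis) in the 4 groups (x axis); each point is 1 animal, black bars are group means (n = 3), and dotted lines are the 95th percentile of the negative control rows, averaged over the group's arrays. Chrna3, Chrna7 and Adcyap1r1 lie above the dotted lines in every animal, and Adcyap1r1 has a mean of 11.02 in colonized insulin and 9.43 in germ-free insulin mice.

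In colonized mice, the comparison of insulin with saline asked how the intact animal's receptors respond within 90 min. Of the 10 genes, 0 were called by limma, against 0.153% of all probe sets, and 3 had an unadjusted p under 0.05 (Chrna5, Chrm1 and Adcyap1r1). The difference was 0.60 ± 0.26 for Adcyap1r1 (adjusted p = 0.40) and 0.56 ± 0.27 for Chrna7 (0.44). Without colonized saline animal 2 these differences were 0.30 and 0.19. The median over the 10 genes was 0.02, and 5 lay on each side of 0. Groups did not overlap for Chrna5 alone, which was lower after insulin, where 6.55% of all probe sets had a lower insulin group without overlap.

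In germ-free mice, insulin minus saline was below 0 for 8 of the 10 genes and the median difference was -0.46, against 0.01 over all probe sets. None was called by limma (0.439% of all probe sets were), while 5 had an unadjusted p under 0.05 (Adcyap1r1, Chrnb2, Vipr1, Chrna3 and Chrnb4). The 5 largest differences were Adcyap1r1 at -0.84 ± 0.26 (adjusted p = 0.30), Chrnb4 at -0.79 ± 0.34 (0.55), Chrna3 at -0.61 ± 0.25 (0.53), Chrna7 at -0.53 ± 0.27 (0.66) and Chrnb2 at -0.51 ± 0.16 (0.32). For 7 genes every insulin animal lay below every saline animal, where 10.1% of all probe sets did. The 7 were the 5 with the largest differences, plus Chrm1 and Vipr1. Of these, Chrnb2, Chrm1 and Vipr1 lay under the negative control limit on every germ-free array. The 12 measured chromaffin markers went the same way, all below 0 in this comparison with a median of -0.53. For 11 of them the insulin group was lower without overlap, and 2 were called lower by limma. With limma's array weights, Adcyap1r1 and Chrnb2 passed the threshold here (adjusted p = 0.0208 and 0.0401), in a fit that called 545 of all probe sets against 86 without the weights.

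The difference of the 2 insulin effects tests whether germ-free and colonized mice responded differently, and it is the same quantity as the difference between the 2 germ-free comparisons below. It was called for 0 of the 10 genes by limma (0.0358% of all probe sets), and 5 had an unadjusted p under 0.05. These 5 were Adcyap1r1 at -1.44 ± 0.37 (adjusted p = 0.22), Chrna5 at 1.19 ± 0.49 (0.45), Chrna7 at -1.09 ± 0.38 (0.37), Chrnb2 at -0.76 ± 0.23 (0.33) and Vipr1 at -0.47 ± 0.19 (0.44). Chrna5, at values under the negative control limit, thus went the other way from the other 4. Chrnb4 gave -0.96 ± 0.48 (0.53) and Chrna3 -0.50 ± 0.36 (0.68). A different response to insulin was therefore not shown for any receptor gene. With limma's array weights Adcyap1r1 passed (-1.35, adjusted p = 0.0437), in a fit that called 149 of all probe sets against 7 without the weights. The mean of the insulin effects over both kinds of mice was called for 0 of 10 genes by limma (0.419% of all probe sets), with 2 at an unadjusted p under 0.05, Chrna5 and Chrm1.

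After saline, germ-free minus colonized asked about the resting state. No receptor gene was called by limma (6.90% of all probe sets were), and 4 had an unadjusted p under 0.05. Chrna5, Chrnb2 and Chrm1 had germ-free animals below all colonized animals, 3 of 10 against 16.4% of all probe sets. Chrnb2 differed by -0.48 ± 0.16 (adjusted p = 0.10), and was called without colonized saline animal 2 (-0.62, adjusted p = 0.0324). Chrna5 and Chrm1 were called without colonized saline animal 3 (adjusted p = 0.0189 and 0.0343). The differences were -0.15 ± 0.26 for Adcyap1r1, -0.17 ± 0.27 for Chrna7, -0.32 ± 0.25 for Chrna3 and -0.33 ± 0.34 for Chrnb4. Without colonized saline animal 2 they were -0.45, -0.54, -0.10 and -0.065 in that order, none of them called, so each moved by more than 1.5 times. Leaving out 1 array at a time gave -0.45 to 0.053 for Adcyap1r1 and -0.54 to 0.15 for Chrna7, so the sign of these 2 differences was not settled.

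After insulin, germ-free minus colonized was the comparison in which receptor genes were called, 4 of 10, all lower. Of all probe sets 7.77% were called in this comparison, and 5.15% were called lower. With dim probe sets left out, Chrnb2 among them, 1516 of the remaining 7068 were called and 1029 were called lower. Groups did not overlap for 7 of the 10 genes, lower in each, against 19.8% of all probe sets. The median over the 10 was -0.71, and -0.03 over all probe sets. This comparison and that of insulin in germ-free mice share the germ-free insulin arrays, so their values are not independent. Leaving out colonized insulin animal 4, germ-free insulin animal 11 or germ-free insulin animal 12 reduced the 4 calls to 2, Chrnb2 and Adcyap1r1, and over all 12 such fits the count ran from 2 to 6. In those fits limma called 451 to 2854 of all probe sets.

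**Figure D2:**
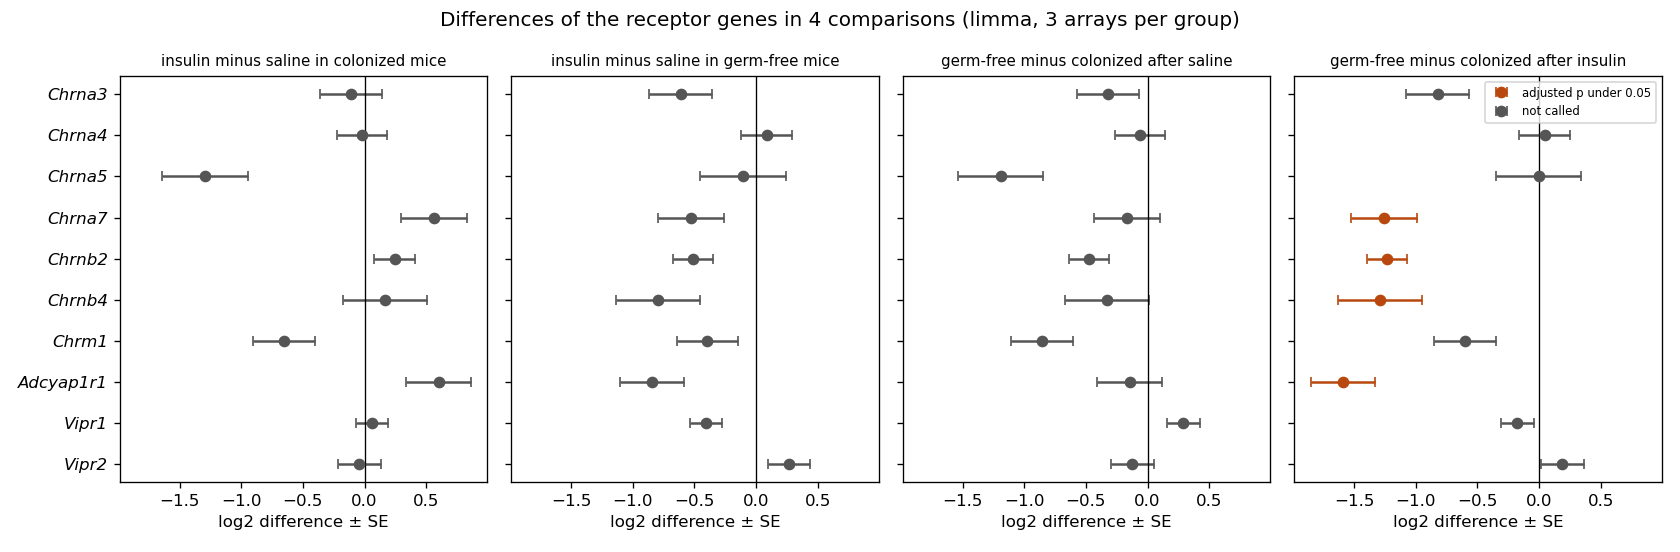
Log2 differences with SE bars (x axis) of the 10 receptor genes (y axis) in 4 comparisons, from limma on 3 arrays per group; filled orange points were called at an adjusted p under 0.05. Orange points appear in the last panel alone, at Chrna7 (-1.26), Chrnb2 (-1.23), Chrnb4 (-1.29) and Adcyap1r1 (-1.59).

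The group means of the called genes ran in the same order as those of the chromaffin markers. Single animals did not always follow. Colonized saline animal 2 had the lowest chromaffin mean of the colonized animals (10.87). Yet it had the highest Chrnb4 of its group (10.04) and the highest Chrna3 of all animals (11.18). That animal also had the highest autonomic neuron markers (9.59), and whether these values are related was not tested. The mean of 12 of the 14 listed chromaffin genes, those measured, was 11.12 after saline (10.87 to 11.34) and 11.34 after insulin (11.07 to 11.58) in colonized mice. In germ-free mice it was 10.90 after saline (10.84 to 10.96) and 10.31 after insulin (10.08 to 10.58). Of the 12, 9 were called lower in germ-free than in colonized mice after insulin. For all 12 the germ-free insulin animals lay below the colonized insulin animals without overlap, and the median difference was -1.10. In a bulk sample, fewer chromaffin cells and less RNA per cell cannot be told apart. With the chromaffin mean as a covariate in limma, the difference after insulin was 0.08 for Adcyap1r1, 0.17 for Chrna7, -0.12 for Chrnb4, -0.06 for Chrna3 and -0.45 for Chrnb2, and none was called (adjusted p = 0.63 to 0.98). In that fit limma called 1 of all 19572 probe sets in this comparison, against 1521 without the covariate, so the lack of a call is not particular to the receptor genes.

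Set against the chromaffin mean of the same array, the group means of the called receptors lay closer together. These genes were called for low values on arrays where the chromaffin mean was low too, so the narrowing was largely set in advance. The log2 value of Adcyap1r1 minus that mean averaged -0.70 after saline and -0.31 after insulin in colonized mice, and -0.62 and -0.88 in germ-free mice. Chrna7 lay at -1.83, -1.48, -1.78 and -1.72 in the same order, and Chrnb4 at -1.61, -1.66, -1.72 and -1.93. Chrnb2 lay at -3.82, -3.79, -4.07 and -4.00. The span from the lowest to the highest group mean was 0.57 for Adcyap1r1, 0.35 for Chrna7, 0.32 for Chrnb4 and 0.28 for Chrnb2, against 1.59, 1.26, 1.29 and 1.23 for their own values. The subtraction also narrowed it for Chrna3 (0.93 to 0.32) and Chrm1 (1.25 to 0.87). It widened for Chrna4 (0.09 to 1.07), Chrna5 (1.30 to 1.51), Vipr1 (0.41 to 0.85) and Vipr2 (0.27 to 1.21). After it, germ-free insulin lay below colonized insulin without overlap for Adcyap1r1 (-1.03 to -0.72 against -0.39 to -0.21). The same held by a narrow gap for Chrna7 (-1.81 to -1.67 against -1.64 to -1.36), while Chrnb4 and Chrnb2 overlapped. How many of all probe sets lay apart after this subtraction was not computed, so nothing particular to Adcyap1r1 or Chrna7 is read from it. With the chromaffin covariate their differences were 0.08 and 0.17, neither of them called.

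Markers of other cells also moved in the germ-free insulin arrays. Adipocyte markers (8 of 9 measured) averaged 10.41 to 10.87 there and 5.95 to 8.72 on the colonized insulin arrays, and 5 of 8 were called higher in germ-free mice after insulin. After saline they averaged 9.07 to 9.81 in germ-free and 6.28 to 10.58 in colonized mice. Pituitary markers (6 of 7 measured) averaged 6.99 to 8.05 in germ-free insulin mice and 5.10 to 5.85 elsewhere, and 5 of 6 were called higher in the same comparison. Intestinal epithelium markers averaged 7.59 to 9.56 in germ-free saline mice and 4.87 to 5.33 elsewhere, with 10 of 10 called higher in the comparison after saline. Hepatocyte markers averaged 7.58 to 9.19 in germ-free insulin and 6.37 to 6.84 in colonized insulin mice, with 1 of 9 called higher. Autonomic neuron markers, which matter because ganglion cells carry Chrna3 and Chrnb4 too, averaged 6.72 to 6.98 in germ-free insulin and 7.25 to 7.78 in colonized insulin mice, with 1 of 7 called lower. With the adipocyte mean as a covariate the differences after insulin were -0.87 for Adcyap1r1, -0.42 for Chrna7, -0.77 for Chrnb2 and -0.84 for Chrnb4, and 0 were called by limma, which called 29 of all probe sets in that fit. With the negative control mean as a covariate, chosen after the data were seen, they were -0.56, -0.90, -1.34 and 1.70 in that order, so that Chrnb4 turned in sign, as did Chrna3 at 1.32. In that fit limma called 0 of all probe sets, and 791 had an unadjusted p under 0.05. Beyond these fits, the part of tissue makeup in the results was not tested.

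**Figure D3:**
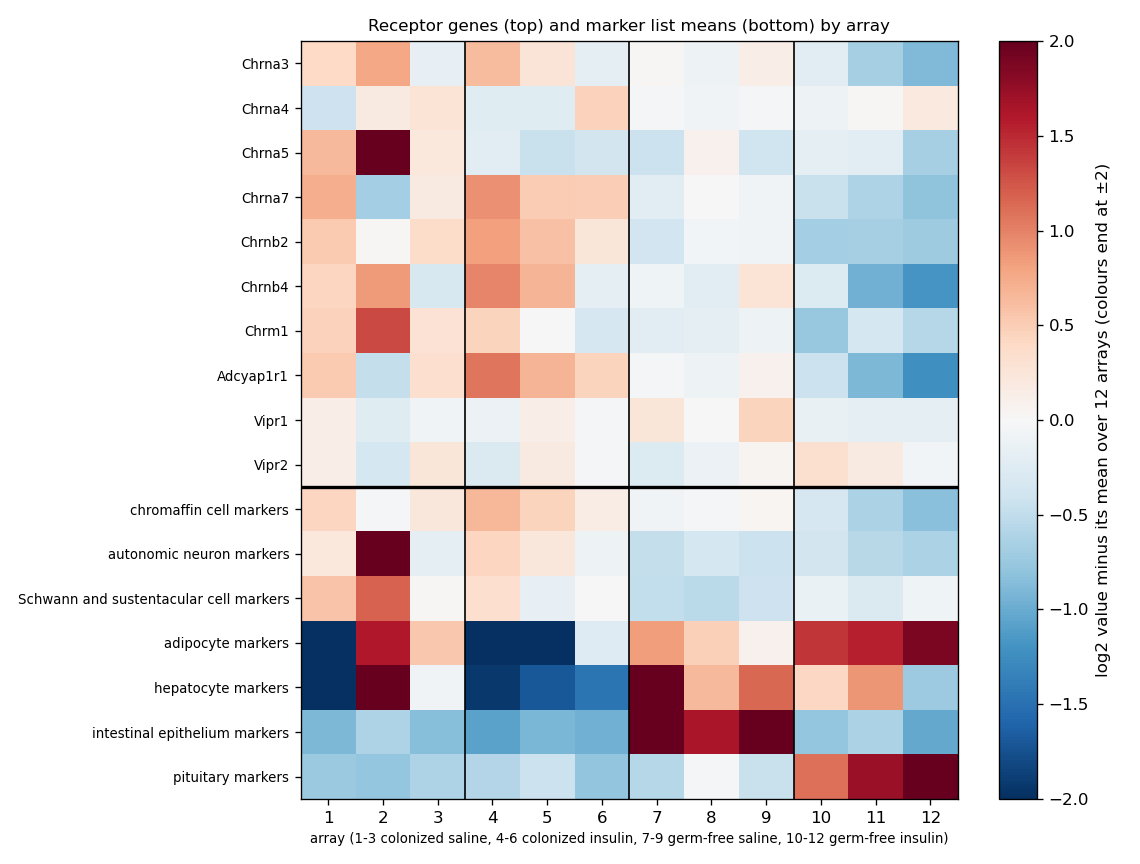
Each row is a receptor gene (top) or the mean of a marker list (bottom), each column 1 array, and colour the log2 value minus its mean over the 12 arrays, ending at ±2. Chrna3, Chrna7, Chrnb2, Chrnb4, Adcyap1r1 and the chromaffin mean all have their lowest value in array 12, where the adipocyte and pituitary means have their highest.

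Other genes of the same pathways were called at about the share of all probe sets. Over 8 lists, 80 genes were measured, and limma called 7 of them between germ-free and colonized mice after saline (3 higher, 4 lower), against 6.90% of all probe sets. After insulin it called 9 (3 higher, 6 lower), against 7.77%. For insulin in colonized mice, insulin in germ-free mice and their difference, 0 of 80 were called by limma, with 8, 4 and 4 at an unadjusted p under 0.05. The other 10 nicotinic subunits and the other 4 muscarinic receptors had no call in any comparison. The median difference of those nicotinic subunits after insulin was 0.11, with the largest in Chrnb1, the muscle beta subunit, at 0.36 (adjusted p = 0.21). Those nicotinic subunits read 6.98 or less, under the negative control limit of every array (7.21 or more), so no lack of change is read from them. The muscarinic receptors reached 7.27 at most, in Chrm2, close to the lowest of those limits.

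Among genes that supply or remove the transmitters, Ache, the acetylcholinesterase that ends the signal, has 2 probe sets that disagreed. The one mapped to the genome gave germ-free minus colonized differences of -0.28 ± 0.17 after saline and -0.56 ± 0.17 after insulin and was not called (limma adjusted p = 0.35 and 0.0713). The brighter one, which stands for Ache in the counts above, carries a platform ID that marks it as unmapped. It measured 8.87, 9.94 and 8.86 in the colonized animals given saline and 9.29, 8.90 and 8.45 in those given insulin. Germ-free animals gave 7.99, 7.89 and 7.98 after saline and 7.69, 7.26 and 7.24 after insulin. All 6 germ-free animals lay below all 6 colonized animals. The germ-free values were under their arrays' negative control limits (8.23 to 8.41), so the sizes of the differences were measured close to the background. The differences were -1.27 ± 0.28 after saline (limma adjusted p = 0.0213) and -1.48 ± 0.28 after insulin (0.00912). Whether this row measures Ache alone was not tested. Chat, Slc18a3 and Slc5a7, which make acetylcholine, package it and take up its choline, were not called, nor were the peptide genes Adcyap1 and Vip. All of these read 6.08 or less, under the negative control limit of every array (7.21 or more), so no lack of change is read from them.

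Of the assembly and Ly6-type partners of nicotinic receptors, 9 in number, Ly6h alone was called, higher by 0.35 in germ-free saline mice (limma adjusted p = 0.0450), at values under the negative control limit of every array. Of 20 genes on the cyclic AMP arm, Prkar1b, a regulatory subunit of protein kinase A, was lower in germ-free mice, with log2 differences of -1.0 after saline and -1.25 after insulin (adjusted p = 0.0113 and 0.00404). Prkar2b, another regulatory subunit, was higher after insulin by 0.82 (0.0221), Gnas, the Gs alpha subunit, was lower after insulin (-0.37, 0.0350), and Adcy3, an adenylyl cyclase, was lower after saline (-0.51, 0.0304). On the Gq arm (12 genes), Gna11, a Gq-class alpha subunit, was lower in germ-free mice after saline and after insulin (-0.41 and -0.53, adjusted p = 0.0186 and 0.00552), and Plcb1, the phospholipase C it drives, was higher by 0.57 and 0.59 (0.0237 and 0.0170). Rgs2, which shortens Gq signals, was higher by 0.89 in both (adjusted p = 0.05, just under the threshold before rounding, and 0.0462), and Prkcb, a protein kinase C, was lower after insulin (-0.76, 0.0116).

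Of 10 further receptors of the secretin family, to which PAC1 and the VPAC receptors belong, Glp1r, the receptor of the incretin GLP-1, was called lower in germ-free mice after insulin (-1.0, limma adjusted p = 0.0291), also at values under each array's negative control limit. The 6 genes taken from around the Chrna5, Chrna3 and Chrnb4 cluster on chromosome 9 had no call. Ireb2, Hykk and Psma4 lie next to it in the RefSeq order, and Adamts7, Morf4l1 and Ctsh lie elsewhere on that chromosome. Hykk differed most after insulin, by -0.54 (adjusted p = 0.0621), while Psma4, the nearest of them to Chrna5, differed by 0.09.

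**Figure D4:**
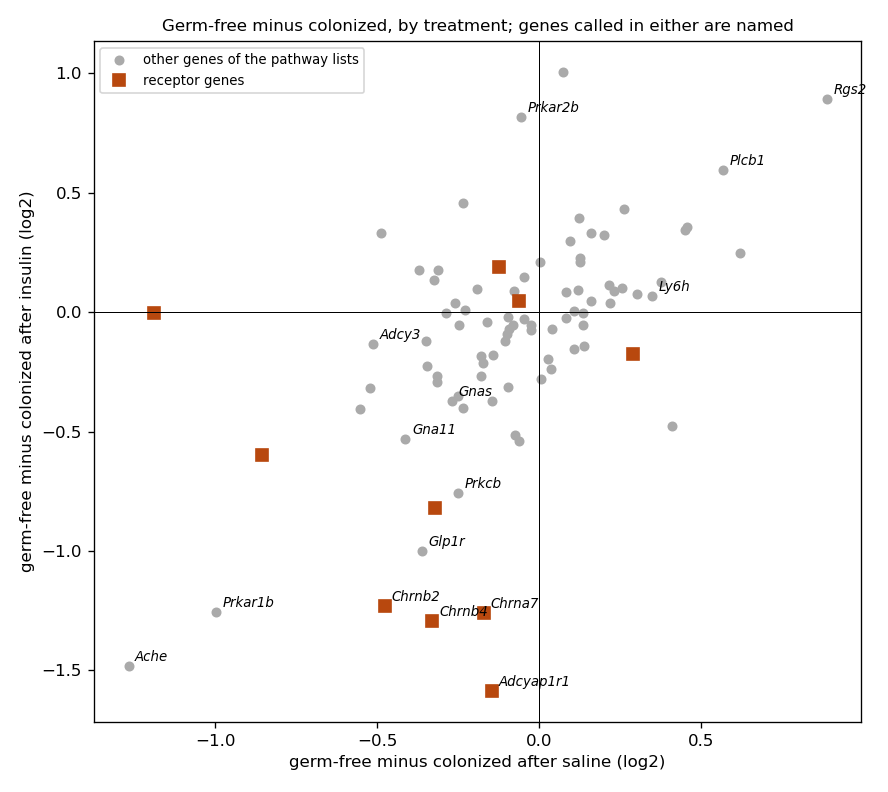
Germ-free minus colonized after saline (x axis) against the same after insulin (y axis), both as log2 differences, for the 10 receptor genes (squares) and 80 pathway genes (grey points); genes called in either are named. Adcyap1r1, Chrna7, Chrnb4 and Chrnb2 lie low on the y axis and within 0.48 of 0 on the x axis, while Prkar1b and the unmapped Ache probe set lie low on both.

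Likeness of pattern was described by the Pearson correlation of log2 values over the 12 arrays, which share the tissue makeup and background given above. Chrna3 was most like Pcbp3 (r = 0.982), its cluster neighbour Chrnb4 (0.977) and the N-type calcium channel gene Cacna1b (0.969). Over all genes the median was 0.06 and the 95th percentile 0.68, so high correlations were common. Chrnb4 was most like Chrna3 (0.977), Rogdi (0.955) and Pcbp3 (0.950). Adcyap1r1 was most like Tmem130 (0.984), the granule protein gene Chga (0.981) and Pnmt, the enzyme that makes adrenaline (0.981). Its median over all genes was 0.09 and the 95th percentile 0.75. Chga and Pnmt are on the chromaffin list.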

How the data were processed

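Expression in 12 adrenal medullae was deposited as log2 values per probe set, 1 column per array. RMA, which subtracts background, quantile normalizes and condenses probes into probe sets, and limma are the tools that the submitters' processing notes list, with no version. Whether the authors ran RMA on all 12 arrays together is unknown. Of 28846 rows, 19572 carry 1 gene symbol in the platform annotation (19505 genes, 55 with more than 1 probe set), and the Entrez IDs of all 19572 were found in the GRCm38.p6 gene table. No value was transformed further. The number of arrays limits the precision.

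One mean per group was fitted on all 12 arrays with limma 3.58.1 in R 4.3.3 (8 residual degrees of freedom, no filter on dim values), and p-values of each of the 6 contrasts were adjusted across all 19572 probe sets (Benjamini-Hochberg). Errors beside differences are standard errors of that fit. The pipeline was tested on simulated data of the same design.

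The receptor genes, the 8 pathway lists and the 12 cell type lists were chosen with earlier results of these data known. Named were all 10 receptor genes, of each pathway list the called genes and up to 3 with the largest change, and for Chrna3, Chrnb4 and Adcyap1r1 the 3 genes most correlated with each. Marker lists are means of log2 values per array. Promoter sequences are RefSeq's. Alternatives were all rows of the table, dim probe sets left out (mean under 7.71, the 95th percentile of the negative control rows), median centring, a second quantile normalization, a single probe set for each gene, array weights, eBayes with trend and robust, the compared groups alone, covariates for cortex, adipocyte and chromaffin markers, and leaving out each array. A covariate for the negative controls was chosen after the data were seen.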

Additional observations from a re-analysis of the deposited data

How the results depend on the processing

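No paired analysis was possible because the replicate numbers run from 1 to 12 and no number is shared between groups. For germ-free minus colonized after insulin, where 4 of the 10 receptor genes were called, the count was 0 with the adipocyte covariate, 0 with the chromaffin covariate and 0 with the negative control covariate, and 2 to 6 when 1 array was left out. With these 3 covariates limma called 29, 1 and 0 of all 19572 probe sets in this comparison (2654, 1804 and 791 at an unadjusted p under 0.05), so the 0 among the receptor genes is not particular to them. Chrnb4 was also not called after a second quantile normalization (adjusted p = 0.0601) or with the trend and robust options (0.0682), while Chrna3 was called once dim probe sets were dropped (0.0394) and under array weights (0.0051), as was Chrm1 under array weights (0.0292). Only Chrna3, Chrna7, Chrnb4 and Adcyap1r1 passed the filter on dim probe sets. In the fit with that filter, limma called 1516 of 7068 probe sets in this comparison, 1029 of them lower. After saline, where 0 were called, the count was 2 with all rows of the table, 1 with array weights, 1 with the adipocyte covariate and 0 to 2 when 1 array was left out. Array weights gave 2 calls for insulin in germ-free mice and 1 for the difference of the insulin effects, against 0 and 0. Over all probe sets they raised the calls from 86 to 545 and from 7 to 149 in these comparisons. For germ-free minus colonized they raised them from 1351 to 2358 after saline and from 1521 to 3727 after insulin, so calls gained with array weights are not particular to the receptor genes.

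Of 1160 receptor gene values under the alternatives, 64 changed sign while smaller than their standard error and not called, and 19 others changed sign. With the cortex covariate, insulin in colonized mice gave -0.092 for Chrna7 and -0.043 for Chrnb2, the difference of insulin effects gave -0.17 for Chrna5, and germ-free minus colonized after saline gave 0.44 for Chrna3, 0.47 for Chrna5 and 0.014 for Chrm1. With the adipocyte covariate, Vipr1 gave 0.038 for germ-free minus colonized after insulin. With the chromaffin covariate, insulin in germ-free mice gave 0.29 for Chrna7 and 0.11 for Adcyap1r1, the difference of insulin effects gave 0.090 for Chrna3 and 0.025 for Chrna7, and germ-free minus colonized after insulin gave 0.17 for Chrna7, 0.078 for Adcyap1r1 and 0.095 for Vipr1. With the negative control covariate, germ-free minus colonized gave 1.84 for Chrna3 and 0.79 for Chrna5 after saline, and 1.32 for Chrna3, 1.70 for Chrnb4 and 0.28 for Vipr1 after insulin. The cause of these changes was not tested. Over all probe sets the calls after insulin were 1521 (1008 lower), 1339 (654 lower) with median centring and 1373 (757 lower) after a second quantile normalization, and after saline 1351 (799 lower), 1197 (428 lower) and 1102 (458 lower). The 4 calls among the receptor genes were lower under median centring as well.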

Other observations

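Sctr, which encodes the secretin receptor, was chosen after its values were seen. It measured 9.75, 9.56 and 7.89 in colonized insulin animals 4, 5 and 6, and 7.95 to 8.86 in the other 9 animals. Insulin minus saline in colonized mice was 0.86 ± 0.38 and was not called (limma adjusted p = 0.40).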
